A study of Mus musculus with 5 samples.

Results

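In mouse neural stem cells (NSC), 1496 of 7458 TLX peaks lay between genes, in acetylated chromatin, at places where no TLX peak was called in brain tumour stem cells (BTSC). They were chosen from the deposited peak lists. A peak of the NSC TLX list qualified if it overlapped no peak of the BTSC TLX list, overlapped a peak of NSC H3K27ac, and had its summit outside every protein-coding gene and more than 1 kb from any protein-coding gene end. Of the 7458 peaks, 6282 had no BTSC counterpart (84.2%), 5781 of these also lay in NSC H3K27ac, and 1496 of those lay between genes. A further 243 NSC-only peaks between genes were outside NSC H3K27ac and are not included. The TLX call in NSC, its absence in BTSC, the acetylation in NSC and the place between genes are therefore the rule, and are given only as a description.

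The study compared where TLX binds and where histone H3 is acetylated at lysine 27 (H3K27ac) in cultured BTSC and NSC. TLX was precipitated with a TY1 antibody from BTSC and NSC transduced with a retrovirus for TLX-3xTY1, so the list describes tagged protein made from a vector. H3K27ac was precipitated from BTSC and NSC that the sample characteristics give as untransduced. The growth and extraction texts, identical for all samples, name the TLX-3xTY1 retrovirus and the TY1 antibody throughout, so the labels conflict here, and the characteristics were followed. If they were wrong, H3K27ac would describe cells with added TLX. A control without antibody came from cells with the empty vector MSCV-neo; its peaks are not analysed here. The series has no TY1 precipitation from cells without the tag, so signal of the antibody that is unrelated to TLX cannot be told apart. Each group is 1 library, so no difference below has a replicate check and none was tested. The lists held 1436 TLX peaks in BTSC and 7458 in NSC, and 31597 H3K27ac peaks in BTSC and 31266 in NSC. The labels of both cultures were set against H3K27ac at gene ends: 15 of 18 neural stem cell genes had it in BTSC and 16 in NSC. Astrocyte genes had it at 13 of 14 in BTSC and 11 in NSC, oligodendrocyte lineage genes at 11 of 14 in BTSC and 10 in NSC, and neuron genes at 5 of 14 in BTSC and 8 in NSC. Of 10 microglial genes, 1 (Cd68) had it in either culture, and of 10 endothelial genes 0 had it in BTSC and 1 (Flt1) in NSC. Most astrocyte and oligodendrocyte lineage genes had it too, so the counts do not tell neural stem cells from these glia. The share over all protein-coding genes is not given here.

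TLX, encoded by Nr2e1, is an orphan nuclear receptor that keeps neural stem cells dividing and undifferentiated, largely as a repressor that recruits histone deacetylases and the demethylase LSD1. It recognises an extended half-site whose core is AAGTCA. H3K27ac marks active promoters and enhancers; between genes it mostly marks enhancers, which can act over long distances and whose use differs between cell types more than that of promoters. A site is named below by the protein-coding gene with the nearest end, which need not be the gene it acts on.

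Of 1005 microRNA hairpins, 22 (2.19%) had the summit of such a site within 5 kb. They included all 3 hairpins of miR-9, which promotes neuronal differentiation and is known to target Tlx mRNA in mouse, and 3 of the 11 of the let-7 family, which restrains proliferation. The other 16 included Mir22, Mir99a, Mir467h, Mir670, Mir802 and Mir7052. Also among the 16 were Gm25641 and Gm51268, which are miR-9b hairpins. Each lies on the strand opposite a miR-9 hairpin and was met by the same summit as that hairpin. Mir3093 was likewise met by the summit of a miR-9 hairpin, and Mirlet7b and Mirlet7c-2 shared a summit. The 22 hairpins therefore do not stand for 22 separate sites. The sequences of miR-9 and let-7 are shown because these families are known in neural development, and were chosen after the values were seen. The sequences are from RefSeq (GRCm38.p6), written 5′ to 3′, with the seed (bases 2 to 8) in capitals.
mmu-miR-9-5p: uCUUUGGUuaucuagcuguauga
mmu-let-7b-5p: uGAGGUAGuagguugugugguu
mmu-let-7c-5p: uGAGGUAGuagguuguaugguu
mmu-let-7i-5p: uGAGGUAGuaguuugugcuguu
The 3 let-7 sequences share the seed GAGGUAG, and all 3 miR-9 genes give the same mature miR-9-5p with the seed CUUUGGU.

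Since the sites avoid the ends of protein-coding genes by rule, the only annotated promoters they met were those of non-coding genes. The summits of 35 sites lay in a RefSeq promoter window of 300 bp. Of the windows that hold the half-site AAGTCA, 1 is shown for each of the 3 genes whose TLX peak had the lowest q, followed by the window of lowest q without it. They were chosen after their values were seen. Each is written 5′ to 3′ on the strand of its gene (RefSeq, GRCm38.p6), and capitals mark AAGTCA or its reverse complement TGACTT.
Gm52506 (chr2:27572944-27573243, plus strand): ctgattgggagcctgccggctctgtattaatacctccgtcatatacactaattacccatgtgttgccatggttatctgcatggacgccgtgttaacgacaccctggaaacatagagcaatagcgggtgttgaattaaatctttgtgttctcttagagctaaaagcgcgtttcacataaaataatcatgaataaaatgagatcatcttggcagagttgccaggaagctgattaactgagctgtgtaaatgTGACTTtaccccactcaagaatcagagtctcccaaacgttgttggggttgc
Gm36150 (chr16:21398452-21398751, minus strand): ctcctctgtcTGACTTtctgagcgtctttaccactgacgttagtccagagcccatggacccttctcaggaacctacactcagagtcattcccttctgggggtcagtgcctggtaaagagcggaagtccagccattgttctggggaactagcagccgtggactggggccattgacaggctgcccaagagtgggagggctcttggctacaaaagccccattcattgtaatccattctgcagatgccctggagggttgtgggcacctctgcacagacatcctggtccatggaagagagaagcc
Celrr (chr1:121087155-121087454, plus strand): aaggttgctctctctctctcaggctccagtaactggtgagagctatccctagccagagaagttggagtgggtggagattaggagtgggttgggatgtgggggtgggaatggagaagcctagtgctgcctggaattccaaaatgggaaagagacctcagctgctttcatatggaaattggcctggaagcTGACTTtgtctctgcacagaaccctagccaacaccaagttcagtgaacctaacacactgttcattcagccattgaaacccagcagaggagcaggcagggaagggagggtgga
3930402G23Rik (chr8:10928408-10928707, minus strand): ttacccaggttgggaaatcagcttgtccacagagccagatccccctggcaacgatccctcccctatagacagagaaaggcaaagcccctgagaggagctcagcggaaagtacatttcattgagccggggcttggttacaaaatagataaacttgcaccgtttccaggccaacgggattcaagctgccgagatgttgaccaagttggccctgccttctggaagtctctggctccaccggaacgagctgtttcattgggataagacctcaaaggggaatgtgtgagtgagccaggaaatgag
The summit stood at base 220 of the Gm52506 window, base 98 of the Gm36150 window, base 167 of the Celrr window and base 228 of the 3930402G23Rik window, counted from the first base printed. All 4 are long non-coding RNA genes. Some summits lay in several overlapping windows, 41 in all, so 1 window was taken for each of the 35 sites. The half-site was present on either strand in the window of 9 of the 35 sites, 25.7% (12.5 to 43.3), and in 15.1% of all 32817 RefSeq promoter windows. The interval holds the 15.1%, and the 32817 windows were not limited to non-coding genes. Over all 41 windows, some of which overlap each other, the half-site was in 12, 29.3% (16.1 to 45.5). The nuclear factor I half-site TTGGCA was present in 31.4% of the 35, in 29.3% of the 41 and in 14.1% of all windows. AGGTCA, the half-site of many other nuclear receptors, was in 11.4% of the 35, 12.2% of the 41 and 16.3% of all. The other 12 of the 15 motifs searched are given over the 35. The SOX motifs ACAAAG and ACAATG were in 22.9% and 25.7% of the 35, and in 18.7% and 12.6% of all windows. GTTGCCA of RFX factors was in 11.4% and in 4.38%, GGAATG of TEAD factors in 7 of the 35 and in 14.7% of all, and TGANTCA of AP-1 in 8.57% and in 7.81%. The E-boxes CAGCTG and CATCTG were in 11.4% and 17.1% of the 35 and in 16.3% and 17.2% of all, CCGGAA of ETS factors in 14.3% and in 14.9%, TAATTA of homeodomains in 2.86% and in 5.30%, and the GC box GGGCGG in 25.7% and in 35.6%. The octamer ATGCAAAT (1.74% of all windows) and the full nuclear factor I palindrome (0.0366%) were in 0 of the 35. Some of these overlap in letters, as TTGGCA does with the reverse complement of GTTGCCA. A match is a description of the letters.

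TLX peaks at these sites were of middling strength. The fold, the authors' ratio of signal over background for each peak, had a median of 4.97 with quartiles of 4.21 and 5.93, and ran from 2.70 to 16.3. Their rank by q in the NSC list had a median of 3454 of 7458, and ran from 46 to 7441. The median width was 591 bp. NSC-only peaks at gene ends (2058 peaks) had a median fold of 4.40, NSC-only peaks inside gene bodies (2227) 4.72, and peaks between genes that BTSC shared (356) 7.35, all within NSC H3K27ac. Fold and q come from the list that chose the sites, so these values are a description.

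**Figure D1:**
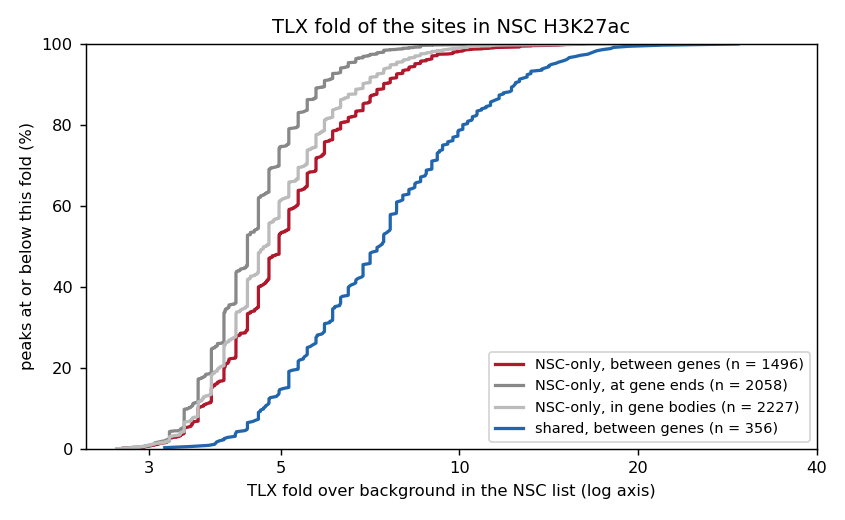
Cumulative share of TLX peaks (y axis, percent) at or below each TLX fold over background in the NSC list (x axis, log scale), for NSC-only sites between genes and 3 other sets of NSC TLX peaks within NSC H3K27ac. The NSC-only sites between genes (median 4.97) lie to the right of NSC-only peaks at gene ends (4.40) and well to the left of the shared peaks between genes (7.35).

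The fold values also give the number of sequenced fragments behind a site. In 64.3% of the BTSC peaks and 73.9% of the NSC peaks, fold and p together matched a whole number of fragments at the summit over a constant background, with 1 added to both (within 0.01 of a step for the fold and 0.02 for −log10 p). That background came to 3.37 fragments in BTSC and 4.23 in NSC, a ratio of 0.797. For the 1077 NSC-only sites between genes that matched, the median was 26 fragments (quartiles 22 and 31, range 15 to 84). The lowest number called was 14 in BTSC and 15 in NSC. Multiplied by the ratio of backgrounds, 1047 of the 1077 (97.2%) came to at least the 14 fragments of the weakest BTSC peak. At 234 sites between genes called in both lists, however, the median was 24 fragments in BTSC and 39 in NSC, with a median ratio of 0.600. Multiplied by that ratio, 695 of the 1077 (64.5%) came to at least 14. The 234 sites were chosen by having a BTSC call, and the 1077 by having a call in NSC alone. Neither share therefore estimates how many of the 1077 should have been called in BTSC.

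The leading sites lay near genes of varied function, several of them far from a gene. The strongest, with a fold of 16.3, lay 12670 bp from Arhgef4, which encodes a guanine nucleotide exchange factor. The next had a fold of 16.1, 24010 bp from the zinc finger gene Zswim6, and a site 66470 bp from Stag2 a fold of 15.1; Stag2 is a cohesin subunit gene on the X chromosome. A site 78335 bp from Astn2, which acts in neuronal migration, had a fold of 14.9, and one 144841 bp from the centrosomal gene Kiz had 14.6. Each of these 5 also overlapped H3K27ac in BTSC. Of the 20 sites of lowest q, 19 did so, and the exception lay 37420 bp from the immediate early gene Ier3.

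Transcription factor genes of the neural and glial lineages were among the nearest genes of these leading sites. The site 3542 bp from Olig1, a factor of oligodendrocyte precursors, had a fold of 13.2 and lay in an acetylated region of 11755 bp in BTSC and 14077 bp in NSC, which held 1 BTSC TLX peak and 3 NSC TLX peaks. A site 327306 bp from Tcf4, the partner of proneural factors, had a fold of 12.6, and a site 223389 bp from the homeobox gene Irx5 had 12.05. The site 15533 bp from Adcyap1r1, which encodes the receptor of the neuropeptide PACAP, had a fold of 10.9 and lay in a region of 3337 bp in BTSC and 12833 bp in NSC. Of the 4 regions of this paragraph it had the most unequal widths.

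The sites were mostly remote. The median distance from summit to the nearest protein-coding gene end was 36628 bp (95% interval 32943 to 40388, quartiles 12193 and 98528) for the 1495 sites on placed chromosomes. The remaining site lay on a scaffold with no annotated gene. Of the 1495, 77.7% were more than 10 kb from a gene end, 24.7% (369) more than 100 kb and 1.94% (29) more than 500 kb. Shared sites between genes had a median of 40202 bp (34076 to 50924), and the 2 intervals overlap. The most remote sites lay 1549650 bp from Zeb2, a zinc finger repressor gene, 1390509 bp from Hace1, a ubiquitin ligase gene, and 1278975 bp from Ctnna2, which encodes a neuronal alpha-catenin. All 3 overlapped H3K27ac in BTSC too, with regions of 3940, 3414 and 2636 bp there and of 4518, 1640 and 2648 bp in NSC.

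The limit of 1 kb separated the following neighbours. The 5 sites nearest beyond it lay 1008 bp from Prkce, 1045 bp from Spry2, 1048 bp from Rfxank, 1057 bp from Lypla2 and 1078 bp from Etv5, with folds of 4.78, 3.63, 9.56, 5.03 and 4.78. The 5 NSC-only peaks that just missed it lay 1000 bp from Setd5, 982 bp from Rap2a, 981 bp from Rfx4, 980 bp from Ptma and 966 bp from Phlda1, with folds of 5.39, 3.44, 5.16, 4.02 and 4.92. All 10 overlapped H3K27ac in BTSC.

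**Figure D2:**
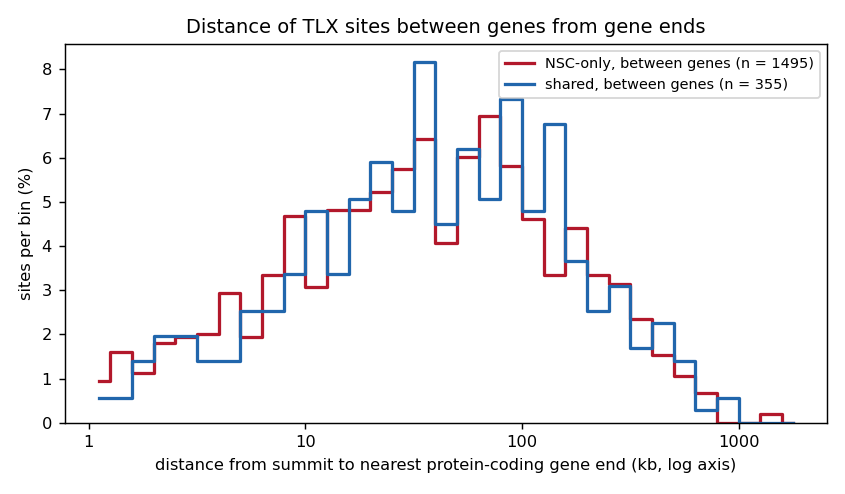
Share of TLX sites per bin (y axis, percent) by the distance from summit to the nearest protein-coding gene end (x axis, kb on a log scale), for NSC-only sites (n = 1495) and sites shared with BTSC (n = 355), both between genes and within NSC H3K27ac. The medians are 36628 bp and 40202 bp, and the outlines run over each other over most of the range.

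Most of the chromatin around these sites was acetylated in the tumour cells as well. Of the 1496 sites, 1282 overlapped a BTSC H3K27ac peak, which is 85.7% (83.8 to 87.4). Over all 7458 NSC TLX peaks the share was 88.1%, and over the 5781 NSC-only peaks in NSC H3K27ac it was 92.7%. By position, it was 98.3% (97.6 to 98.8) at gene ends and 92.3% (91.1 to 93.4) inside gene bodies. Between genes it was 97.8% (95.6 to 99.0) at the sites shared with BTSC. The intervals of the NSC-only sites between genes lay below those of the other 3 sets and did not overlap them. The intervals cover counting error only, since each list is 1 library. The NSC H3K27ac regions of the NSC-only sites between genes had a median H3K27ac fold of 7.35. It was 13.4 at gene ends, 9.07 inside gene bodies and 9.53 at the shared sites between genes. Whether the lower share goes with this weaker acetylation in NSC was not tested.

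Around most of these sites H3K27ac covered less length in BTSC. Within 5 kb either side of the summit, the H3K27ac peaks covered a median of 2346 bp in BTSC and 2927 bp in NSC. Coverage was lower in BTSC at 66.6% of the sites (997; 64.2 to 69.0) and higher at 30.8% (461). At gene ends it was lower in BTSC at 47.2% (45.0 to 49.4), inside gene bodies at 57.9% (55.8 to 59.9) and at shared sites between genes at 37.9% (32.9 to 43.2). Of the 1282 sites with H3K27ac in both cultures, the BTSC region was narrower at 792 (61.8%) and wider at 488. All 4 sets were chosen by their TLX and H3K27ac peaks in NSC, and the shared sites also by a TLX peak in BTSC. The share over all NSC TLX peaks is not given here.

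**Figure D3:**
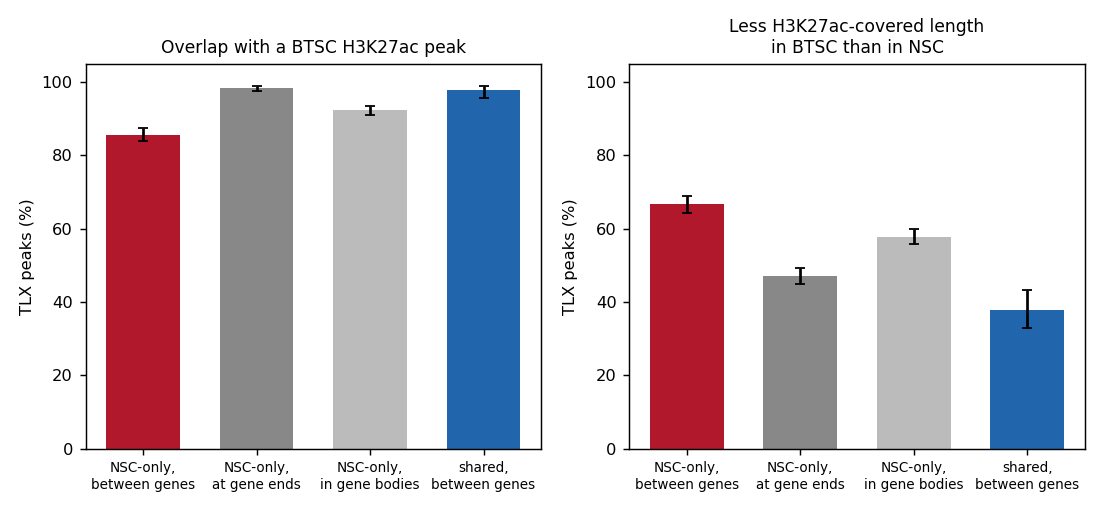
Left, share of TLX peaks (y axis, percent) that overlap a BTSC H3K27ac peak, and right, share with less H3K27ac-covered length within 5 kb of the summit in BTSC than in NSC, for 4 sets of NSC TLX peaks within NSC H3K27ac; bars are shares and lines exact 95% intervals of counting error. NSC-only sites between genes stand lowest on the left (85.7%) and highest on the right (66.6%).

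Single sites showed differences in both directions. Near Cpne8, a calcium-dependent membrane-binding protein gene, the H3K27ac peaks around a site covered 0 bp in BTSC and 7714 bp in NSC. A site 1759 bp from Nes, the gene of the stem cell filament nestin, had 3203 bp in BTSC and 10001 bp in NSC, the whole window. Around a site 41848 bp from Itga6, an integrin gene of stem cells, they covered 1394 bp in BTSC and 7592 bp in NSC. The other way round, a site 8828 bp from Adm, the gene of the vasodilator adrenomedullin, had 10001 bp in BTSC and 2606 bp in NSC. The same was seen 70962 bp from the chromatin remodeller gene Chd7 (10001 bp in BTSC and 3706 bp in NSC) and 26556 bp from Nfib, a nuclear factor I gene of glia (10001 bp in BTSC and 4736 bp in NSC). These 6 sites are from the 10 most unequal in each direction, and were picked for that.

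The 214 sites without H3K27ac in BTSC were on the whole narrow and weakly acetylated in NSC. Their NSC H3K27ac region had a median width of 1465 bp and a median fold of 3.70, against 3044 bp and 8.49 at the 1282 sites acetylated in both. Their TLX folds were close, with a median of 4.78 (4.59 to 4.97) against 4.97 (4.97 to 5.09). They lay farther from genes, at a median of 58866 bp (49625 to 80629) against 34216 bp (30887 to 37339). For 187 of the 214 no H3K27ac peak of BTSC touched the 5 kb either side. Among the 300 sites of lowest TLX q, the most significant, 87.3% (83.0 to 90.9) were acetylated in BTSC, and among the 299 of highest q 82.6% (77.8 to 86.7) were; these intervals overlap.

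Of the 146 sites nearest to a gene of the lists described further on, 20 were among these 214, 13.7% (8.57 to 20.4), close to the 14.3% of all sites. A site 32905 bp from Gsx1, a homeobox gene of ventral forebrain progenitors, had a TLX fold of 10.1 in an NSC region of 2396 bp. A site 58877 bp from Nkx2-2, a homeobox gene of oligodendrocyte precursors, had a TLX fold of 6.69 in a region of 3496 bp. All 3 sites nearest to Cdon, a co-receptor of Sonic hedgehog, were in this group, at 18620 to 60750 bp, with folds of 3.82 to 5.16. A site 54053 bp from Shh itself was as well, with a fold of 3.44. A site 116370 bp from Myc, with a fold of 8.99, lay in an NSC region of 6367 bp, in which BTSC had a peak of 727 bp beside the site. The others of the 10 sites of lowest q in this group were nearest to Ier3, Acer3, Rpusd4, Rap2b, C1qtnf3, Cacna1h, Wdr5 and Cd180, with folds of 8.12 to 10.5. Wdr5 encodes a core subunit of histone H3 lysine 4 methyltransferases, and the site nearest to it is the one in the Gm52506 promoter printed above.

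The width of the acetylated region went with its presence in BTSC. NSC H3K27ac regions that held such a site numbered 1408, of which 1210 (85.9%) overlapped BTSC H3K27ac. For a like comparison only the 1358 whose midpoint also lay between genes were used, of which 85.4% did so, against 61.5% of the 7112 regions with the midpoint between genes and no NSC TLX peak. Regions with a site were wider, with a median of 2430 bp against 1248 bp, so they were compared within width classes. Below 1 kb the share was 56.7% (47.3 to 65.7) with a site and 42.4% (40.5 to 44.3) without. From 1 to 2 kb it was 74.5% (70.1 to 78.5) with a site and 65.0% (63.3 to 66.8) without. From 2 to 4 kb it was 93.3% (90.5 to 95.5) with a site and 83.5% (81.4 to 85.5) without, and above that 98.1% (96.2 to 99.2) with and 93.5% (90.3 to 95.9) without. In all 4 classes the share was higher with a site, but so was the median H3K27ac fold, at 6.93 against 3.31 over all widths.

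By chromosome, the share of sites in BTSC H3K27ac ran from 78.6% on X (14 sites) to 92.3% on chromosome 19 (39 sites), and the interval of each chromosome overlapped that of all sites. Chromosome 6 held the most sites, 153 (10.2%), close to its 10.3% of all NSC TLX peaks. Of the 153, 79.7% (72.5 to 85.8) were in BTSC H3K27ac. Less covered length in BTSC than in NSC was seen at 44.8% of the 67 sites on chromosome 1 and 49.3% of the 71 on chromosome 7, the lowest shares. The highest were 79.1% of the 67 on chromosome 5, 77.8% on chromosome 6, 75.6% of the 41 on chromosome 16 and 75.3% on chromosome 9. These shares were picked as extremes and have no intervals. Without chromosomes 1 and 6 the share was 66.5%, against 66.6% of all sites.

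Most sites stood alone in their acetylated region. Of the 1408 regions, 1336 held 1 site, 64 held 2 and 8 held 3 or more, with a maximum of 6. Another NSC TLX peak of any kind was in the region of 15.0% of the sites (13.3 to 17.0). This was 8.07% (6.93 to 9.33) for NSC-only peaks at gene ends, 16.7% (15.1 to 18.3) for those inside gene bodies and 19.1% (15.1 to 23.6) for shared peaks between genes. With the NSC TLX list limited to as many peaks as the BTSC list, it fell to 7.80% (4.95 to 11.6) of 282 sites, and was 0.962% at gene ends, 5.37% inside gene bodies and 8.26% (4.97 to 12.7) for shared peaks between genes. A BTSC TLX peak was in the same NSC region at 4.41% of the sites (66), and within 10 kb at 6.42% (96). The region reached a protein-coding gene end at 8.09% of the sites (121).

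Several of the widest acetylated regions with sites lay over microRNA genes. The widest, over Mir9-1 and next to the ammonium transporter gene Rhbg, measured 53065 bp in BTSC and 52772 bp in NSC and held 3 BTSC TLX peaks and 9 NSC TLX peaks. The region over Mir9-3, nearest to the mitochondrial DNA polymerase gene Polg, measured 59305 bp in BTSC and 43315 bp in NSC and held 2 BTSC and 8 NSC TLX peaks. That over Mir9-2, nearest to the transcription factor gene Mef2c, measured 38175 bp in BTSC and 32230 bp in NSC. Around a site nearest to Ppara the region measured 57815 bp in BTSC and 31813 bp in NSC, and the same BTSC region also covered the let-7b site. Around a site nearest to Atp6v1e2 the region measured 2884 bp in BTSC and 22737 bp in NSC.

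The distances to the hairpins were shortest at Mir802, Mir9-3 and Mirlet7i. The summit of a site with a fold of 4.59 lay 14 bp from the Mir9-3 hairpin, that of a site with a fold of 5.16 lay 31 bp from Mirlet7i, and that of a site with a fold of 4.02 lay inside the Mir802 hairpin. Sites lay 570 bp from Mir9-1 (fold 4.21) and 794 bp from Mir9-2 (fold 3.82). The strongest of them, with a fold of 9.94, lay 4108 bp from Mirlet7c-2 and 4824 bp from Mirlet7b. A TLX summit of any kind in NSC lay within 5 kb of 88 of the 1005 microRNA hairpins (8.76%). The distance of 5 kb was set after the data had been seen.

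Long non-coding RNA genes held a sizeable minority of the sites. The summits of 376 sites, 25.1% (23.0 to 27.4), lay inside such a gene, against 12.6% over all NSC TLX peaks. The 12.6% includes peaks at gene ends and inside gene bodies, which the rule leaves out, so it is not a like comparison. At gene ends the share was 7.39%, inside gene bodies 8.08% and at shared sites between genes 28.4% (23.7 to 33.4). The interval of the shared sites, which are alike in position, overlaps that of the NSC-only sites. The 376 sites lay in 351 long non-coding genes, some of which overlap each other. Pvt1 and Sox2ot held 6 sites each, and Mir9-3hg and Gm26562 held 4 each. Of the 376, 86.2% overlapped H3K27ac in BTSC, and of the 1120 elsewhere 85.5% did.

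The sites were spread over 1103 nearest genes, 5.04% of the 21887 protein-coding genes. Of these, 849 had 1 site, 171 had 2, 51 had 3 and 32 had 4 or more. Sox2, which encodes the factor at the centre of the neural stem cell programme, had the most, with 11 sites in 6 acetylated regions at 4953 to 496863 bp. Their folds ran from 3.82 to 7.46, with a median of 4.59, and all 11 overlapped H3K27ac in BTSC. Of the 11, 6 lay inside Sox2ot, the non-coding gene that surrounds Sox2. The region closest to Sox2 measured 27036 bp in BTSC and 27340 bp in NSC and held 1 BTSC TLX peak and 6 NSC TLX peaks. The farther region at 83842 to 88077 bp measured 11294 bp in BTSC and 21421 bp in NSC.

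Myc, the driver of growth and cell cycle entry, had 6 sites, and all of them lay inside the non-coding gene Pvt1 at 102613 to 219773 bp. Their folds were 5.50 to 8.99 with a median of 6.12, above the median of 4.97 of all sites. Of the 6, 5 overlapped H3K27ac in BTSC. Around every one of the 6, less length was covered in BTSC than in NSC, for example 727 bp in BTSC and 6367 bp in NSC at 114498 bp from Myc, and 6425 bp in BTSC and 7729 bp in NSC at 219773 bp. Its relative Mycn had 3 sites at 31373 to 125578 bp, all with H3K27ac in BTSC and all with more covered length there. The lengths were 569 bp in BTSC and 501 bp in NSC at 31373 bp, and 1540 bp in BTSC and 1050 bp in NSC at 125578 bp.

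Other genes with several sites showed both patterns. Lpin1, a phosphatidate phosphatase gene, had 8 sites, of which 6 overlapped H3K27ac in BTSC. Pou3f2, which encodes the neural progenitor factor BRN2, had 5, all acetylated in BTSC, at 1295 to 347577 bp. Ncam1, a neural adhesion molecule gene, had 5 in 5 regions at 125003 to 265614 bp, all acetylated in BTSC. Wnt7b, a Wnt ligand gene, had 4 at 29252 to 72079 bp with folds of 5.16 to 8.61, and around the last of them the BTSC region was the 57815 bp region of the let-7b locus. Prex1, an activator of Rac, had 4, of which 2 lacked H3K27ac in BTSC, and Eipr1 had 5, of which 2 lacked it. Fbln2, a matrix gene on chromosome 6, had 5, all acetylated in BTSC, and each with less covered length there than in NSC. Irf2bp2 and Zfp608 had 6 each, and Zfp462 and Polg 5 each, with every site acetylated in BTSC. The 5 sites of Polg lay in 1 NSC region, while those of Irf2bp2 lay in 5, of Zfp608 in 6 and of Zfp462 in 5.

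**Figure D4:**
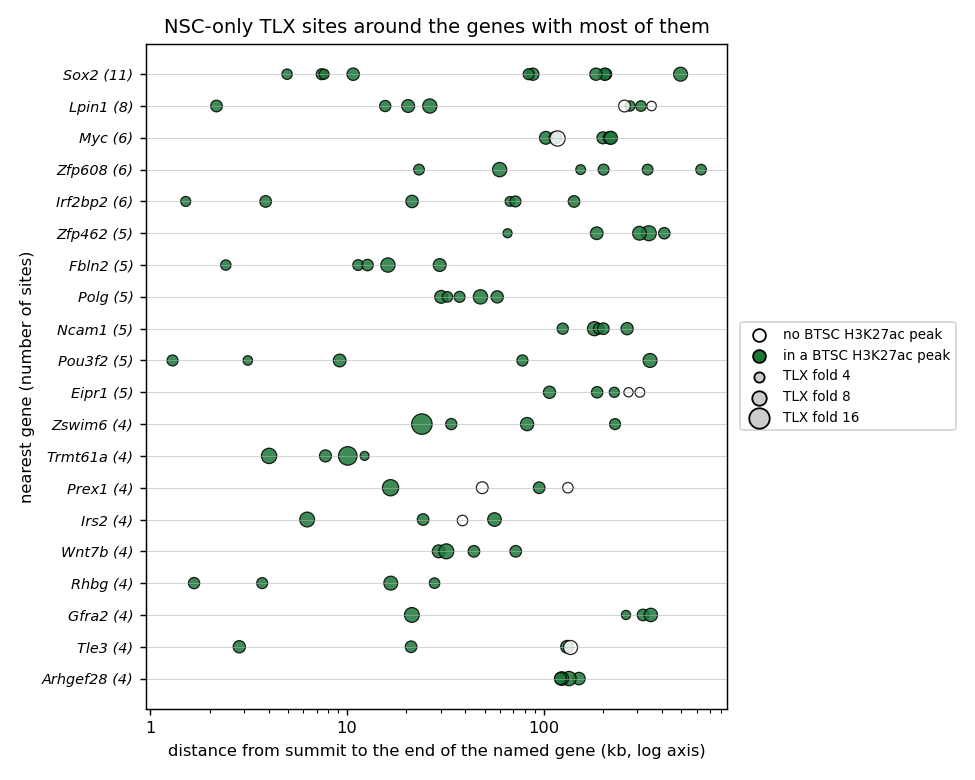
NSC-only TLX sites around 20 of the 32 genes with 4 or more (rows, with the number of sites; of genes with equal numbers, those with the site of lowest q), placed by distance from summit to the end of that gene (x axis, kb on a log scale); circle area follows TLX fold, filled circles overlap a BTSC H3K27ac peak and open circles do not. Sox2 has 11 sites, all filled; Myc has 6 between 102613 and 219773 bp, 1 of them open.

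To compare gene groups, the sites were counted against the space between genes that is nearest to each gene, since genes in wide gaps can collect more. Over all protein-coding genes there were 0.921 sites per Mb of that space. The rule admits only sites in NSC H3K27ac, and the space was not limited to acetylated chromatin. Genes with more H3K27ac around them in NSC can therefore collect more sites by the rule. How much of the values below goes with this was not tested. The lists were chosen with earlier results of these data known, some genes are in several of them, and the values describe them without a test. Counts of sites in BTSC H3K27ac are to be read beside the 85.7% of all sites that overlapped it. Most lists have too few sites to tell their share from that. Genes of neural stem cells had 25 sites, 7.26 per Mb, nearest to 10 of 18 genes, and 11 of the 25 belong to Sox2. Besides Sox2 and Nes they included Hes1 (3 sites), Hes5, Pax6 and Sox9 (2 each), and Fabp7, Sox1 and Notch1 (1 each). The 2 sites nearest to Pax6, a regulator of forebrain progenitors, lay inside Pax6os1 at 52840 and 56810 bp. All but the Nes site overlapped H3K27ac in BTSC.

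Sox and POU factor genes had 33 sites near 10 of 15 genes, 4.37 per Mb. Sox11, a factor of immature neurons, had 4 with 2 acetylated in BTSC, and Pou3f3 had 4, all acetylated there. Oligodendrocyte lineage genes had only 6 sites, near 5 of 14 genes, but in 0.723 Mb of space, which gives 8.30 per Mb. These were Olig2 (2), Olig1, Bcas1 (fold 9.75), Nkx2-2 and Pdgfra, the growth factor receptor gene of precursors, whose site lay at 149494 bp. Nuclear factor I and glial factor genes had 13 sites near 8 of 14 genes, in 5.20 Mb, among them 3 near Nfib and 2 near Id4.

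Among signalling pathways, the Notch pathway, which keeps progenitors undifferentiated, had 9 sites near 5 of 18 genes, 5.30 per Mb. They were near the receptor gene Notch1 (fold 7.27), the ligand gene Jag1 (2), and the target genes Hes1, Hes5 and Hey1. All 9 overlapped H3K27ac in BTSC, as did 85.7% of all sites. The Wnt pathway had 12 near 8 of 18 genes, 4.85 per Mb: the ligand genes Wnt5a, Wnt7a and Wnt7b, the receptor gene Fzd1, the inhibitor genes Axin2 and Apc, Dkk3 of the Dickkopf family, and the effector gene Tcf7l2. Of these 12, 11 overlapped H3K27ac in BTSC, the exception being Fzd1 at 222644 bp. The Hedgehog pathway had 4, near 2 of 12 genes, Cdon and Shh, 1.84 per Mb. All 4 were without H3K27ac in BTSC, but 2 of the Cdon sites shared 1 NSC H3K27ac region and are not separate observations. The BMP and TGF-beta pathway had 0 sites near 18 genes, in 2.75 Mb. Receptor tyrosine kinases and their ligands had 6 near 3 of 20 genes, 1.70 per Mb, with 4 near the feedback inhibitor gene Spry2 and 1 each near Pdgfra and Kit.

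Forebrain patterning genes had 13 sites near 8 of 19 genes, 1.83 per Mb. Nr2f1, which encodes the nuclear receptor COUP-TFI, had 3, Dlx2, Meis1 and Meis2 had 2 each, and Otx2, Nr2f2 and Gsx1 were among those with 1. All but the Gsx1 site were acetylated in BTSC. Proneural and neuronal factor genes had 5 near 4 of 15 genes, 1.67 per Mb. Cell cycle drivers had 13 near 5 of 12 genes, 3.24 per Mb: Myc, Mycn, Ccnd1, Ccnd2 and Mki67. The site 114291 bp from Ccnd2, a D-type cyclin gene on chromosome 6, had 588 covered bp in BTSC and 3287 in NSC. Cell cycle inhibitors and tumour suppressors had 3 near 2 of 13 genes, 3.60 per Mb, with 2 near Cdkn1b and 1 near Cdkn2c.

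Cofactors and reported targets of TLX had 8 sites near 5 of 16 protein-coding genes, 2.46 per Mb. They were near the corepressor gene Atn1 (fold 6.88, at 1553 bp), the reported targets Plce1, Wnt7a (2) and Ccnd1, and Nr2f1 (3), and all 8 overlapped H3K27ac in BTSC. Mesenchymal glioblastoma genes had 9 near 5 of 17 genes, 5.77 per Mb: Bhlhe40 and Tgfbi (3 each), Stat3, Cebpb and Tead1. AP-1 genes had 2, both near Jun, 3.30 per Mb. Adhesion and guidance genes had 12 near 5 of 20 genes in 13.6 Mb, 0.886 per Mb, near Ncam1, the matrix gene Tnc, Robo2, Sema6a and Plxna2. The astrocyte, neuron, microglia and endothelium lists had few sites in number. There were 2 for astrocytes (Aldh1l1 and Slc1a2), and 1 each for neurons (Rbfox3), microglia (Ptprc, at 164277 bp) and endothelium (Emcn, at 190543 bp). Per Mb the values were 1.62, 0.624, 1.44 and 0.725, so those of astrocytes and microglia were above the 0.921 of all genes. Over the union of the lists, 77 of 291 genes had 146 sites, 2.37 per Mb.

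**Figure D5:**
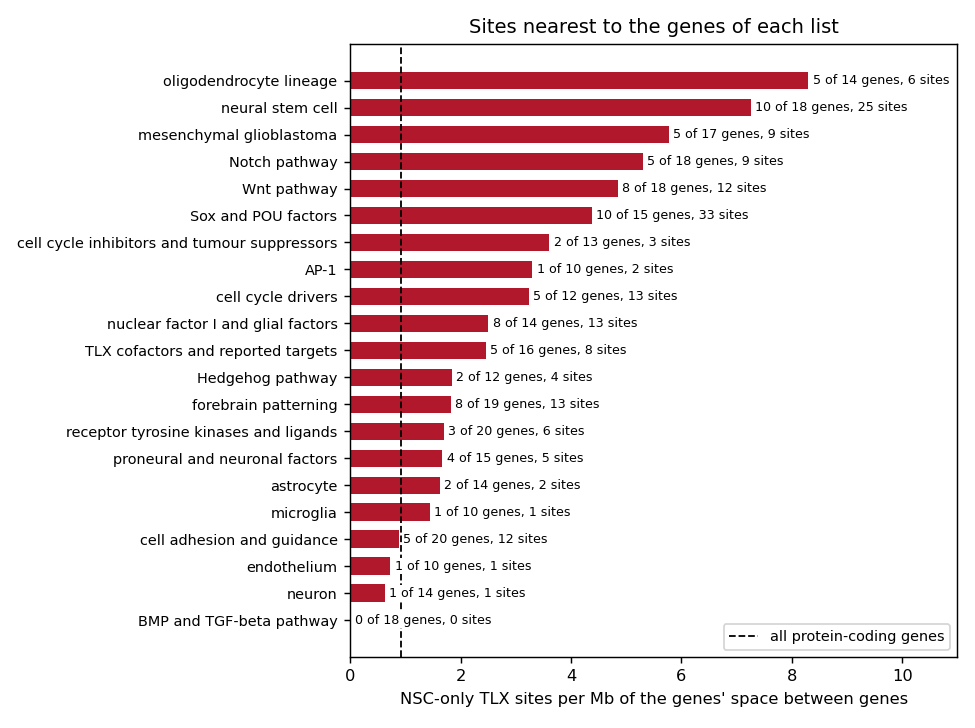
NSC-only TLX sites per Mb of the space between genes nearest to the genes of each list (x axis), with the number of genes and sites beside each bar; the dashed line is the value of all protein-coding genes (0.921 per Mb). Oligodendrocyte lineage (8.30) and neural stem cell genes (7.26) stand highest, from 6 and 25 sites, and the BMP and TGF-beta pathway is at 0. Sites had to lie in NSC H3K27ac, while the space was not limited to it.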

How the data were processed

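ChIP-seq peak lists of 4 libraries (TLX and H3K27ac in BTSC and in NSC, 1 library each) were used. The build was mm10, and the tools named were ChIPseeker, Bowtie and bcl2fastq 2.17.1.14, per the submitters' processing notes. Which peak caller made the lists is not given in the sources used here. Each deposited peak carries a score, a fold enrichment (a linear ratio over background), and its p-value and q-value as −log10; these are the authors' values and served to describe, rank or filter peaks within a list. No read totals were among the sources, so the depth is unknown.

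Overlap meant at least 1 bp. Genes came from RefSeq GRCm38.p6 (21887 protein-coding genes, with no strand or exons used). Calculations used Python 3.11.15, pandas 2.3.3, SciPy 1.17.1 and NumPy 2.4.6, with figures by Matplotlib 3.10.9. Shares have exact Clopper-Pearson 95% intervals and medians order-statistic 95% intervals, which cover counting error only. The search for overlaps and nearest gene ends was checked on simulated coordinates. No p-value was computed. The sites and gene lists were chosen with earlier results of these data known. Sites were named by rule: the 20 of lowest q, genes with 4 or more sites (at most 20), the 10 of lowest q without BTSC H3K27ac, the 10 widest regions, the 5 most distant, genes of the lists, the 10 of lowest q in non-coding genes, and 5 either side of the 1 kb limit; not every one is printed. Unequal covered lengths, promoters and microRNA genes were picked after their values were seen. The motif search around summits was not run, since it needs a genome sequence; 15 motifs were searched in RefSeq promoter windows on both strands instead. Alternatives were a −log10 q of at least 5 in either culture's lists, 2 other overlap rules for TLX, summits inside H3K27ac, a gene end window of 2.5 kb, all RefSeq genes, equal numbers of peaks, joined peaks, and chromosomes 1 and 6 left out. Added after seeing the data were counts over all promoter windows, regions with midpoints between genes, and equal numbers of peaks for the other TLX sets.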

Additional observations from a re-analysis of the deposited data

How the results depend on the processing

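Of 50 values under 10 alternatives, 40 stayed within the interval of the value reported, or within 1.5 times for the number of sites. With the NSC TLX list limited to as many peaks as the BTSC list, 282 sites remained instead of 1496; 87.6% of them overlapped BTSC H3K27ac, their median distance to a gene end was 45686 bp, their median NSC H3K27ac region 2916 bp, and 7.80% shared that region with another TLX peak. With a −log10 q of at least 5 in the NSC lists, 90.5% overlapped BTSC H3K27ac and the median region was 3117 bp; with that limit in the BTSC lists instead, 73.6% overlapped. A gene end window of 2.5 kb gave a median distance of 40560 bp, and joining of TLX peaks within 1 kb gave a shared region for 12.05% of the sites. Without chromosomes 1 and 6 each of the values stayed within its interval. The limit on q, the number of peaks, the window and the joining change the set of sites by construction. The motif search around summits was not run. No paired analysis was possible because each group is 1 library.

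One library per group, unknown depth and the lack of a TY1 precipitation from untagged cells limit every value. A site not called in BTSC is one below that list's threshold, which is not the absence of TLX.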
